A study of Rattus norvegicus with 12 samples.

Results

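The genes described here encode the enzymes of conjugation, namely the glutathione transferases (GST), the UDP-glycosyltransferases (UGT) and the cytosolic sulfotransferases (SULT). They were taken by symbol, as protein-coding genes named Gsta, Gstk, Gstm, Gsto, Gstp, Gstt, Gstz, Mgst, Ugt or Sult followed by a digit. The rule found 43 genes of 30208 in the count table, of which 24 are GST, 8 UGT and 11 SULT genes, under 42 symbols because Ugt2b35 stands on 2 gene rows. After the filter on low counts 34 were tested (23 GST, 4 UGT and 7 SULT), among 14664 genes tested in all. The 9 others held few reads over the 12 libraries: Ugt2b15 had 72, Sult1d1 and Ugt2b had 10 each, Gstp3 had 8, Sult6b2 had 7, the second Ugt2b35 row (ENSRNOG00000065137) had 4, and Sult1e1, Sult2a2 and Ugt2b10 had 1 each.

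RNA was sequenced from rat kidney in 3 groups of 4 libraries: CPB+Nitrite (cardiopulmonary bypass, the circulation of blood through a heart-lung machine, with nitrite, an anion that tissues can reduce to nitric oxide), CPB (bypass alone) and sham (the surgical control). The labels give no strain, sex, age, dose, duration or time of sampling, and do not say that libraries of a group are separate animals, so p-values measure only the spread between these samples. Libraries held 16.8 to 25.8 M reads (M, mega). Levels are counts-per-million values (CPM) with edgeR's TMM scaling, and since they are not divided by transcript length they are compared between libraries and not between genes. Copies within the alpha and mu GST classes and within the UGT2B and SULT1C groups are alike in sequence, and how their reads were divided is uncertain.

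Conjugation is the stage of detoxification in which a large polar group is joined to a reactive or fat-soluble compound. GSTs join glutathione to electrophiles, UGTs join a sugar from a UDP-sugar (usually glucuronic acid) to hydroxyl and other groups, and SULTs transfer sulfate from the activated donor PAPS to phenols, steroids and amines. In kidney these enzymes are best known from the tubular epithelium, above all the proximal tubule, whose cells also export the conjugates and trim glutathione conjugates to mercapturates.

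With bypass alone the conjugating enzymes were lower or did not pass the test, and none was higher. In CPB against sham 13 of the 34 tested genes (38.2%) were lower at an adjusted p under 0.05 (quasi-likelihood test of edgeR, Benjamini-Hochberg adjusted over all 14664 genes), beside 21.5% of all genes tested. None was higher, beside 21.7% of all genes. The 13 were Gsta2, Gsta3, Gstm4, Gstt2, Gstt3, Gstz1, Mgst3, Ugt2b35, Ugt8, Sult1a1, Sult1b1, Sult1c2a and Sult2b1, that is 7 of 23 GST, 2 of 4 UGT and 4 of 7 SULT genes. The median log2 change was -0.70 over the 34 genes and -0.05 over all genes tested, with 30 of the 34 below 0 (Mgst1 at -0.00), beside 52.6% of all genes. For 17 of the 34 all CPB libraries were below all sham libraries, which held for 24.8% of all genes tested.

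**Figure D1:**
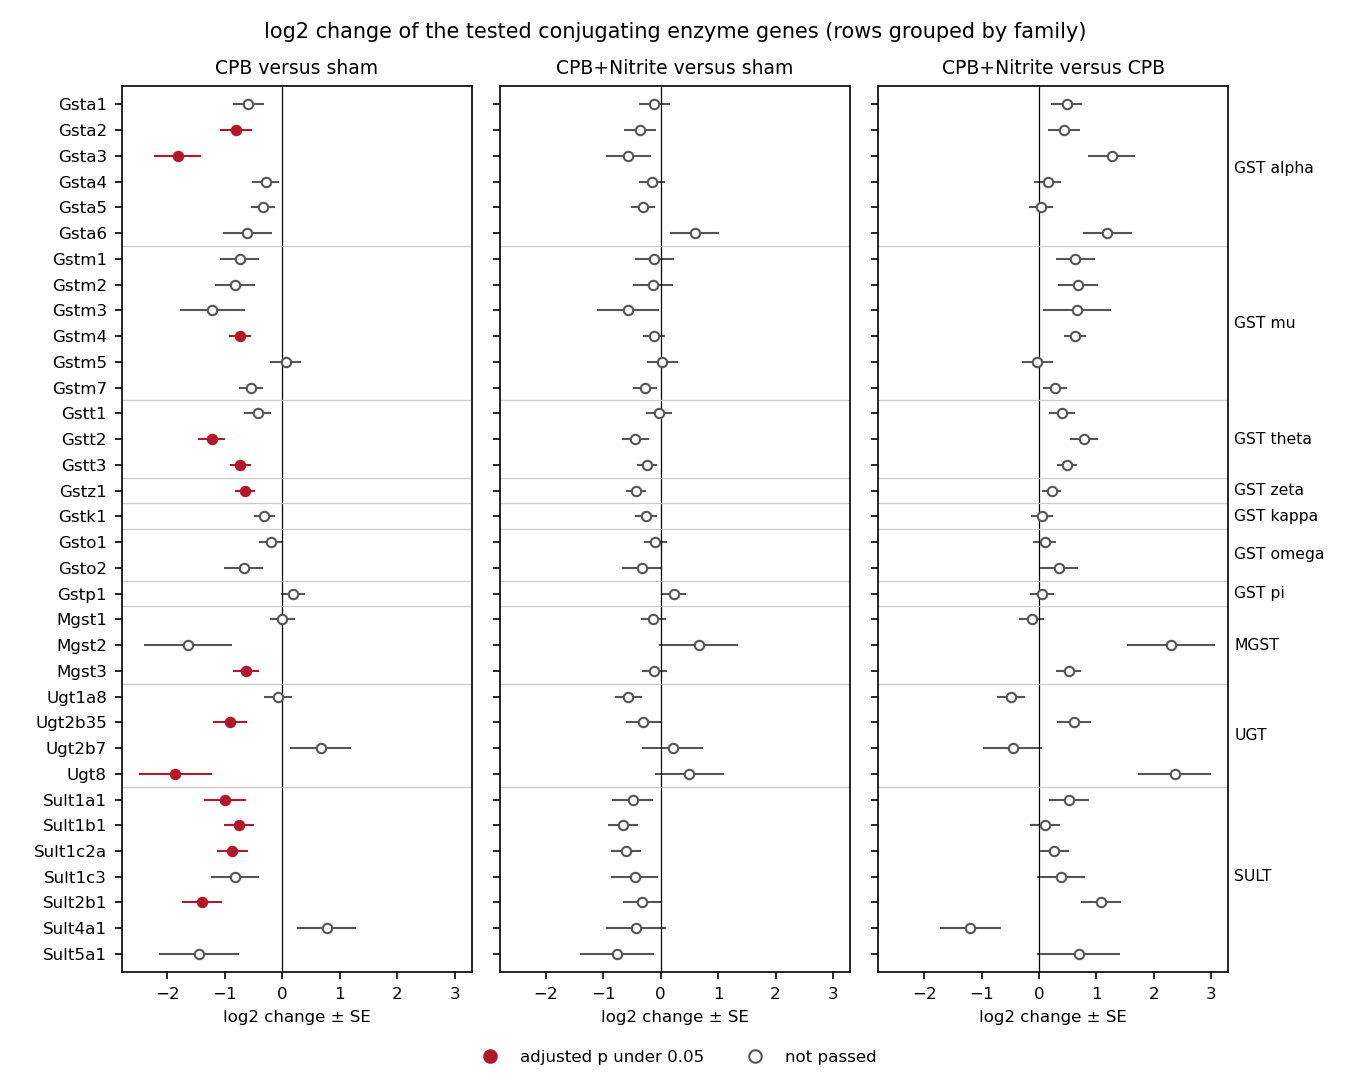
log2 change with its standard error (horizontal axis) for the 34 tested conjugating enzyme genes (rows, grouped by family) in CPB versus sham, CPB+Nitrite versus sham and CPB+Nitrite versus CPB. Filled red points passed the adjusted threshold of 0.05: 13 genes, all to the left of 0, in CPB versus sham, and none in the other panels.

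Promoter sequence is shown first for genes of this group, because a pair of DNA motifs is textbook knowledge for conjugating enzymes. The antioxidant response element (ARE), bound by NRF2 with small MAF proteins, has the core TGACNNNGC. The xenobiotic response element (XRE), bound by the aryl hydrocarbon receptor with ARNT, has the core GCGTG. Both strands were searched in windows of 300 bases, 250 before and 50 after each listed start of a gene, from RefSeq on GRCr8, which is not the build of the count table. Windows existed for 36 of the 43 genes and 30 of the 34 tested. Gsta3 and Gsto2 had 2 windows each, and a gene counted as a match if any of its windows matched. Shares of genes therefore stand beside shares of single windows. The XRE core of Gsta3 stood only in window 2, and its ARE core in window 1. The ARE core stood in 7 of the 30 (23.3%) and in 12.1% of all 33469 windows, and the XRE core in 11 of the 30 (36.7%) and in 29.7% of all windows. The ARE core was in the windows of 3 of the 12 genes lower in CPB that had one (Gsta2, Gsta3 and Gstz1) and of 4 of the 18 others (Gsta1, Gstm5, Gstm7 and Gstp1). For the XRE core these counts were 6 of 12 and 5 of 18. In 1 place an ARE match and an XRE match overlapped. A match is only a match of letters, and no binding was measured here. Sequence outside these windows was not searched, so elements farther from a start would not be seen. The sites of the ARE core in the 3 genes that were lower in CPB, with Gstp1 as a gene whose groups overlapped, are printed 5′ to 3′ on the strand of the gene with the core in capitals. In Gsta2 and Gstz1 the core is read on the opposite strand. Its first printed base lay 17 bases before the start in Gsta3, 61 before it in Gstp1 and 231 before it in Gstz1, and at base 37 from the start in Gsta2.
Gsta3 (chr9:31154957-31154995, plus strand): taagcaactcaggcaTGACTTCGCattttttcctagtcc
Gsta2 (chr8:88077043-88077071, minus strand): gaagccacgactctcGCTAGGTCAgtact
Gstz1 (chr6:112525360-112525398, plus strand): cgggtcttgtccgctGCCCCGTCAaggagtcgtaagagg
Gstp1 (chr1:210769743-210769781, minus strand): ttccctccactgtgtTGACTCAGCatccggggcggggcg
The whole window of Gsta2 follows, with the ARE core (GCTAGGTCA on this strand) and a pair of adjoining XRE cores (GCGTG and its complement CACGC) in capitals.
Gsta2 (chr8:88077043-88077342, minus strand): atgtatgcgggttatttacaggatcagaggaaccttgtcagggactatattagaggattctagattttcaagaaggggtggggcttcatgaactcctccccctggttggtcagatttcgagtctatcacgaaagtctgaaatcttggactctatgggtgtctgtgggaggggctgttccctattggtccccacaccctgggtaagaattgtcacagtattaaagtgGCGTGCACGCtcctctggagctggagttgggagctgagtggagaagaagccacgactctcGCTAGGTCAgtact

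The alpha-class GSTs are abundant cytosolic enzymes of tubule and liver that conjugate electrophiles and reduce lipid hydroperoxides. Gsta2 (ENSRNOG00000029861, chr8:79184322-79196798, minus strand) had 444, 1110, 612 and 461 CPM in CPB+Nitrite, against 611, 458, 510 and 363 CPM in CPB and 939, 821, 931 and 679 CPM in sham. All 4 CPB libraries were below all 4 sham libraries, and the CPB+Nitrite libraries spanned both groups, with CPB+Nitrite 2 the highest of the 12. The fall in CPB was a log2 change of -0.80 (SE 0.28, adjusted p = 0.0357 in edgeR's test). Gsta3 (ENSRNOG00000056847, chr9:23658574-23684240, plus strand), a less read alpha-class gene, had 8.57, 30.8, 15.3 and 8.89 CPM in CPB+Nitrite, against 7.62, 4.64, 5.38 and 8.77 CPM in CPB and 24.7, 34.4, 15.8 and 18.6 CPM in sham. Again CPB and sham did not overlap, and CPB+Nitrite 1 and 4 stood close to the CPB libraries while CPB+Nitrite 2 stood within the sham range. Gsta3 fell in CPB with a log2 change of -1.82 (SE 0.41, adjusted p = 0.00504 in edgeR's test), the largest fall of any tested GST.

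The other 4 alpha-class genes did not pass the test. Gsta1 had 416, 756, 460 and 269 CPM in CPB+Nitrite, against 410, 334, 377 and 241 CPM in CPB and 577, 523, 531 and 423 CPM in sham. Its CPB and sham libraries did not overlap, although its log2 change of -0.59 (SE 0.27) had an adjusted p of 0.0917 in edgeR's test. Gsta4, which removes the lipid peroxidation product 4-hydroxynonenal, had 120, 197, 136 and 77 CPM in CPB+Nitrite, against 143, 91.1, 123 and 120 CPM in CPB and 149, 148, 158 and 130 CPM in sham, with a log2 change of -0.29 (SE 0.23) in CPB. For Gsta5, known in rat for conjugating aflatoxin epoxide, the log2 change in CPB was -0.34 (SE 0.21), with means of 66.2 ± 16.3 CPM in CPB+Nitrite, 64.5 ± 12.9 in CPB and 81.4 ± 15.1 in sham (SD, n = 4 each). The groups of Gsta4 and Gsta5 overlapped. Gsta6, named after its values were seen, had 5.62, 32, 9.4 and 9.42 CPM in CPB+Nitrite, against 5.92, 6.37, 7.47 and 4.95 CPM in CPB and 10.3, 9.33, 7.89 and 10.1 CPM in sham, so that CPB+Nitrite 2 stood apart above every other library.

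Mu-class GSTs handle epoxides and quinones, and their genes lie side by side on chromosome 2. Gstm4 (ENSRNOG00000019221, chr2:195680004-195685323, minus strand) had 17.9, 23.6, 14.2 and 15.2 CPM in CPB+Nitrite, against 14.7, 11.5, 9.34 and 10.5 CPM in CPB and 20.3, 17.9, 19 and 19.6 CPM in sham. Every CPB library was below every sham library, and CPB+Nitrite 2 was above them all. The fall in CPB was a log2 change of -0.74 (SE 0.19, adjusted p = 0.00956 in edgeR's test). Gstm2 had 127, 80, 172 and 55.2 CPM in CPB+Nitrite, against 57.1, 54.5, 58.1 and 101 CPM in CPB and 180, 80.1, 112 and 108 CPM in sham, and Gstm1 had 113, 53.3, 99.2 and 35.3 CPM in CPB+Nitrite, against 43.4, 44.8, 44.2 and 61.9 CPM in CPB and 116, 46.9, 76.3 and 85.9 CPM in sham. In both genes CPB 4 stood apart above the other CPB libraries, sham 1 and sham 2 marked the ends of a wide sham range, and the groups overlapped. Their log2 changes in CPB were -0.83 (SE 0.35, adjusted p = 0.0704) for Gstm2 and -0.74 (SE 0.34, adjusted p = 0.0952) for Gstm1 in edgeR's test. The deposited interval of Gstm2 (chr2:195544426-195628961, minus strand) spans the rows of Gstm3 and Gstm7, so their reads are divided in a way the table does not resolve. Of the remaining mu-class genes, Gstm3, Gstm5 and Gstm7 had log2 changes of -1.22, 0.06 and -0.55 in CPB and did not pass, and that of Gstm5 was -0.13 when scaled by total counts alone.

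The theta class holds older cytosolic GSTs, known for small halogenated compounds and sulfate esters, encoded together on chromosome 20. Gstt2 (ENSRNOG00000052415, chr20:12819170-12823288, plus strand) had 40, 72.1, 57.8 and 28.2 CPM in CPB+Nitrite, against 31.3, 26.2, 33.3 and 24.1 CPM in CPB and 67.9, 61.6, 73.6 and 66.2 CPM in sham. The highest CPB library was below the lowest sham library by more than the range within either group, and the CPB+Nitrite libraries were spread from CPB-like to sham-like values. Gstt2 fell in CPB with a log2 change of -1.23 (SE 0.24, adjusted p = 0.00264 in edgeR's test), the smallest adjusted p of the 34 genes. Gstt3 (ENSRNOG00000001242, chr20:12874854-12882599, plus strand) had 328, 484, 488 and 284 CPM in CPB+Nitrite, against 311, 271, 263 and 283 CPM in CPB and 460, 456, 496 and 465 CPM in sham. The CPB and sham groups were tight and apart, CPB+Nitrite 2 and 3 lay in the sham range, and CPB+Nitrite 1 and 4 lay near the CPB libraries. Its fall in CPB was a log2 change of -0.73 (SE 0.18, adjusted p = 0.00704 in edgeR's test). Gstt1 had 43.9, 91.5, 65.4 and 43 CPM in CPB+Nitrite, against 53, 37.4, 49.7 and 44.7 CPM in CPB and 69.3, 64.5, 63.9 and 50.5 CPM in sham and did not pass in CPB (log2 change -0.43, SE 0.23, adjusted p = 0.142 in edgeR's test).

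The single zeta-class gene encodes maleylacetoacetate isomerase, an enzyme of tyrosine breakdown. Gstz1 (ENSRNOG00000047708, chr6:106794074-106805284, plus strand) had 95.7, 102, 117 and 67.3 CPM in CPB+Nitrite, against 91, 70.8, 75.8 and 89.9 CPM in CPB and 136, 130, 138 and 111 CPM in sham. All CPB libraries were below all sham libraries, and 3 of the 4 CPB+Nitrite libraries were below the lowest sham library. Gstz1 fell in CPB with a log2 change of -0.65 (SE 0.17, adjusted p = 0.00915 in edgeR's test).

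The kappa, omega and pi classes had no gene past the threshold in CPB. Gstk1, a mitochondrial and peroxisomal enzyme, had 32.6, 34.5, 35.2 and 20.4 CPM in CPB+Nitrite, against 32.5, 22.6, 30.7 and 33.1 CPM in CPB and 40.9, 39.2, 33.8 and 33.2 CPM in sham, with no overlap between CPB and sham but a log2 change of only -0.31 (SE 0.19, adjusted p = 0.191 in edgeR's test). Gsto1, an omega-class thiol transferase that reduces dehydroascorbate, had 91.9, 145, 93.7 and 89.7 CPM in CPB+Nitrite, against 124, 87.5, 103 and 76.4 CPM in CPB and 124, 125, 114 and 86.1 CPM in sham, and its groups overlapped. Gsto2, the second omega gene, averaged 2.22 ± 0.881 CPM in CPB+Nitrite, 1.76 ± 0.259 in CPB and 2.81 ± 0.959 in sham (SD, n = 4 each), with an adjusted p of 0.127 in edgeR's test. Gstp1 (ENSRNOG00000018237, chr1:201321672-201340226, minus strand), the pi-class enzyme that is known from rat liver nodules and also adds glutathione to protein thiols, had 440, 385, 387 and 279 CPM in CPB+Nitrite, against 509, 296, 348 and 285 CPM in CPB and 336, 317, 366 and 255 CPM in sham. The groups of Gstp1 overlapped, and its log2 change of 0.18 (SE 0.21) in CPB became -0.03 without CPB 1.

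Membrane-bound GSTs (MGST) are unrelated in fold to the cytosolic classes. Mgst3 (ENSRNOG00000004245, chr13:79526541-79547411, minus strand), which acts on leukotriene A4 and lipid hydroperoxides, had 93.9, 169, 93.1 and 76.6 CPM in CPB+Nitrite, against 92.2, 70.7, 71.7 and 66.1 CPM in CPB and 132, 109, 121 and 105 CPM in sham. CPB and sham did not overlap, and CPB+Nitrite 2 was the highest library of all. Mgst3 fell in CPB with a log2 change of -0.63 (SE 0.22, adjusted p = 0.0344 in edgeR's test). Mgst1, the abundant microsomal and outer mitochondrial enzyme, averaged 129 ± 38.7 CPM in CPB+Nitrite, 141 ± 23.6 in CPB and 141 ± 15.6 in sham (SD, n = 4 each), with a log2 change of 0.00 (SE 0.22) in CPB. Mgst2, an enzyme that can make leukotriene C4, averaged 1.65 ± 1.1 CPM in CPB+Nitrite, 0.334 ± 0.214 in CPB and 1.04 ± 0.795 in sham (SD, n = 4 each) and is named after its values were seen.

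UGTs sit in the endoplasmic reticulum. Ugt2b35 (ENSRNOG00000001980, chr14:20853587-20891037, plus strand), a member of the UGT2B group that glucuronidates steroids and other lipids, had 107, 303, 137 and 94.3 CPM in CPB+Nitrite, against 105, 95, 122 and 98 CPM in CPB and 184, 222, 201 and 185 CPM in sham. The 4 CPB libraries were below the 4 sham libraries, 3 CPB+Nitrite libraries stood at or near CPB values, and CPB+Nitrite 2 was the highest of all 12. Ugt2b35 fell in CPB with a log2 change of -0.91 (SE 0.30, adjusted p = 0.0278 in edgeR's test). Ugt8 (ENSRNOG00000009345, chr2:214264483-214332660, minus strand), the enzyme that joins galactose and not glucuronic acid to ceramide in the making of galactosylceramide and sulfatide, had 4.77, 61.2, 12.6 and 9.38 CPM in CPB+Nitrite, against 3.83, 3.78, 5.21 and 4.35 CPM in CPB and 11, 23.1, 13.2 and 15 CPM in sham. CPB values were low and close together, and CPB+Nitrite 2 alone was above the highest sham library. Ugt8 fell in CPB with a log2 change of -1.86 (SE 0.63, adjusted p = 0.0309 in edgeR's test).

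The Ugt1a8 row had 322, 212, 424 and 209 CPM in CPB+Nitrite, against 495, 341, 461 and 343 CPM in CPB and 457, 338, 530 and 395 CPM in sham. Its CPB and sham groups overlapped (log2 change -0.07, SE 0.24, adjusted p = 0.838 in edgeR's test). The row covers the whole UGT1A locus (chr9:88713184-88808465, plus strand), whose enzymes differ in their first exon and share the rest. Its value may therefore be a sum over UGT1A forms, which could not be checked here. Ugt2b7 stayed at or under 1.14 CPM in every library and did not pass.

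SULTs are cytosolic enzymes that end or alter the action of hormones and also sulfate xenobiotics. Sult1c2a (ENSRNOG00000042111, chr9:6874249-6904734, minus strand), one of several SULT1C genes, had 948, 1500, 1820 and 741 CPM in CPB+Nitrite, against 1310, 1060, 970 and 815 CPM in CPB and 1540, 1990, 2200 and 1850 CPM in sham. The groups CPB and sham did not overlap, and the CPB+Nitrite libraries ran from under the lowest CPB library to within the sham range. Sult1c2a fell in CPB with a log2 change of -0.87 (SE 0.27, adjusted p = 0.0202 in edgeR's test). Sult2b1 (ENSRNOG00000021046, chr1:96200156-96261295, minus strand), which sulfates cholesterol and 3-hydroxysteroids, had 5.15, 17.3, 16.1 and 13 CPM in CPB+Nitrite, against 9.4, 4.53, 5.89 and 4.35 CPM in CPB and 15.4, 20.1, 15 and 13.6 CPM in sham. CPB lay below sham without overlap, CPB+Nitrite 2 and 3 lay in the sham range, and CPB+Nitrite 1 lay in the CPB range. Sult2b1 fell in CPB with a log2 change of -1.40 (SE 0.35, adjusted p = 0.00816 in edgeR's test).

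Sult1a1 (ENSRNOG00000019342, chr1:181272023-181275562, minus strand), the phenol sulfotransferase, had 56.4, 21.6, 54.3 and 18.3 CPM in CPB+Nitrite, against 26.5, 19.7, 24.4 and 34.6 CPM in CPB and 74.7, 40.7, 44.7 and 50.9 CPM in sham. CPB and sham did not overlap, and the CPB+Nitrite libraries split into a pair (1 and 3) within the sham range and a pair (2 and 4) near the lowest CPB library. Sult1a1 fell in CPB with a log2 change of -1.0 (SE 0.36, adjusted p = 0.0372 in edgeR's test). Sult1b1 (ENSRNOG00000001967, chr14:20492708-20505483, plus strand), which acts on thyroid hormones and small phenols, had 27.9, 46.8, 53.8 and 30.5 CPM in CPB+Nitrite, against 52.1, 33.6, 40.4 and 22 CPM in CPB and 67.6, 65.6, 63.8 and 54.6 CPM in sham. Both the CPB and the CPB+Nitrite libraries were all below the sham libraries. Sult1b1 fell in CPB with a log2 change of -0.76 (SE 0.26, adjusted p = 0.0316 in edgeR's test). Of the other 3 SULT genes tested, Sult1c3 and Sult5a1 had log2 changes of -0.83 and -1.45 in CPB and did not pass. Sult4a1, a form best known from brain and named after its values were seen, had 7.31, 14, 28.4 and 28.3 CPM in CPB+Nitrite, against 53.9, 35.3, 79.3 and 10.4 CPM in CPB and 29.5, 33.5, 23.6 and 18.1 CPM in sham, so the CPB libraries held both the highest and nearly the lowest of the 12 values (log2 change 0.77, SE 0.52, adjusted p = 0.24 in edgeR's test).

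**Figure D2:**
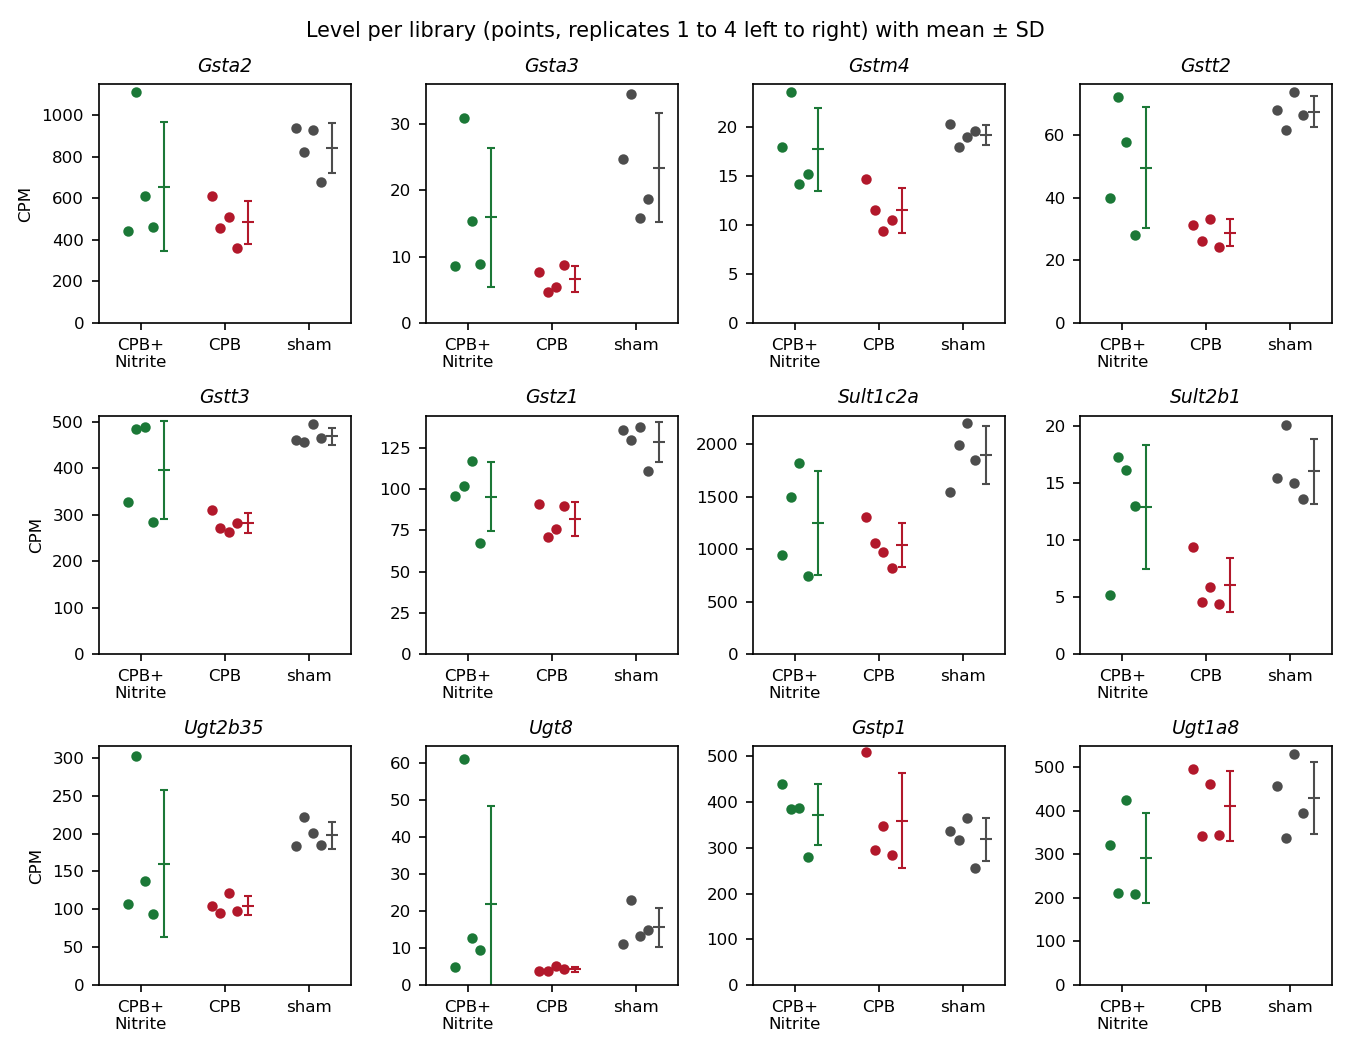
Level in CPM (vertical axes, from 0) of 12 conjugating enzyme genes in each library, with groups from left to right CPB+Nitrite, CPB and sham, points for libraries 1 to 4 and a bar for the mean ± SD (n = 4, the lower end for Ugt8 in CPB+Nitrite lies below 0). CPB points lie below all sham points in the panels of the 10 genes that were lower in CPB, and overlap them for Gstp1 and Ugt1a8, while CPB+Nitrite points spread over both ranges.

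Of the 13 calls in CPB against sham, 6 held in all 21 alternatives: Gsta3, Gstm4, Gstt2, Gstt3, Gstz1 and Sult2b1. The others were lost only when a library was left out. Gsta2, Mgst3 and Sult1b1 lost the call without sham 1, 2 or 3 or CPB 2, 3 or 4, with adjusted p up to 0.0991, 0.0895 and 0.0812 in edgeR's test. Ugt8 lost it without sham 2 or 4 or any CPB library (adjusted p up to 0.0807 in edgeR's test). Sult1a1 lost it without sham 1 or 4 or CPB 1, 2 or 3 (up to 0.114), Ugt2b35 without sham 2 or 3 or CPB 1, 2 or 4 (up to 0.0725), and Sult1c2a without sham 3 or CPB 3 or 4 (up to 0.0605). Without CPB 2 or without CPB 3 the count of lower genes was 7 of 34 (20.6%), when 15.3% and 15.1% of all genes were lower. With limma voom and sample weights it was 25 of 34 (73.5%), beside 31.7% of all genes. Scaled by total counts alone it was 17 of 34 (50%), beside 29.1% of all genes, a scaling that put the median of all genes at -0.242 and the share of higher genes among all calls at 34.9%, against 50.3% with TMM.

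With nitrite added to bypass no conjugating enzyme passed the test against sham in either direction, beside 3.85% of all genes higher and 0.955% lower by edgeR. These calls over all genes, 565 higher and 140 lower, were 0 in both directions without sham 2, without CPB+Nitrite 4 or with only the groups compared, 3 higher and 0 lower without sham 1, 1 higher and 0 lower without sham 4, and 27 higher and 1 lower with the replicate block. At an unadjusted p under 0.05 were 4 of the 34 genes (11.8%), beside 27.4% of all genes. They were Gstz1, Sult1b1, Sult1c2a and Ugt1a8, all with negative log2 changes (-0.43, -0.66, -0.60 and -0.56), and the smallest adjusted p in edgeR's test was 0.123. For 2 genes, Gstm3 and Sult1b1, all CPB+Nitrite libraries were below all sham libraries, beside 5.87% of all genes. Over the 34 genes 28 log2 changes were negative beside 47.1% of all genes, with a median of -0.27, against 0.037 for all genes tested. The count moved with the test and with single libraries. It was 5 lower (14.7%) with limma voom and sample weights, beside 8.67% of all genes. It was 3 lower (8.82%) without CPB+Nitrite 2 (Gsta2, Gsta3 and Ugt2b35), beside 3.19%, and 4 lower (11.8%) without CPB+Nitrite 3 (Gstz1, Sult1b1, Sult1c2a and Ugt1a8), beside 9.11%.

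Against bypass alone, bypass with nitrite likewise gave no call among the conjugating enzymes, and by edgeR 0% of all genes passed in either direction. An unadjusted p under 0.05 was found for 10 of the 34 genes and for 29.4% of all genes tested. The log2 change was positive for 29 of the 34, when 45.9% of all genes had a negative one, with a median of 0.42 beside 0.053 over all genes. The smallest adjusted p in edgeR's test were 0.0611 for Ugt8 (log2 change 2.36, SE 0.64), 0.0724 for Gstt2 (0.78, SE 0.24), 0.0729 for Gstm4 (0.62, SE 0.19), 0.0776 for Gsta3 (1.27, SE 0.41), 0.0785 for Sult2b1 (1.08, SE 0.35) and 0.0814 for Mgst2 (2.30, SE 0.76). For none of the 34 were all CPB+Nitrite libraries above all CPB libraries, which held for 6.44% of all genes. DESeq2 called 7 of 35 genes higher (20%), namely Gsta3, Gsta6, Gstm4, Gstt2, Mgst2, Sult2b1 and Ugt8, beside 8.52% of all genes it tested. In CPB+Nitrite 2 Ugt8 was at 61.2 CPM, against 4.77 to 12.6 in the rest of its group. Gsta6 was at 32 CPM there, against 5.62 to 9.42. Mgst2 had only 8, 1, 10 and 6 reads in CPB libraries 1 to 4. Without CPB+Nitrite 1 edgeR called 5 of 34 higher (14.7%), namely Gsta3, Gsta6, Gstt2, Sult2b1 and Ugt8, beside 11.2% of all genes. The comparisons share the sham, CPB or CPB+Nitrite libraries, so their values are not independent of each other.

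The CPB+Nitrite libraries were the most spread. For 29 of the 34 tested genes the SD of the CPM was largest in CPB+Nitrite, beside 65.3% of all genes tested. For each of the 13 genes that were lower in CPB, a library's level was set against the means of the CPB and sham groups. CPB+Nitrite 2 and CPB+Nitrite 3 were nearer the sham mean for 10 of the 13 genes each, and CPB+Nitrite 1 and CPB+Nitrite 4 for 3 each. CPB+Nitrite 2 exceeded every sham library for 5 of the 13. The 13 genes were picked by their CPB and sham values in these data. Such counts were not taken over all genes lower in CPB, so whether they are particular to conjugating enzymes was not tested. Over all 34 tested genes CPB+Nitrite 2 was the highest of its group for 17 (50%), beside 33.6% of all genes tested, and CPB+Nitrite 4 was the lowest for 21 (61.8%), beside 20.7% of all genes. The genes did not follow one order of libraries. All 6 alpha-class genes were highest in CPB+Nitrite 2, whereas Gstm1, Gstm2, Gstm7 and Sult1a1 were highest in CPB+Nitrite 1 or 3. The log2 change of Ugt8 against sham was 0.50 (SE 0.60) with all libraries and -0.80 without CPB+Nitrite 2, and that of Gsta6 was 0.59 (SE 0.42) and -0.21.

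**Figure D3:**
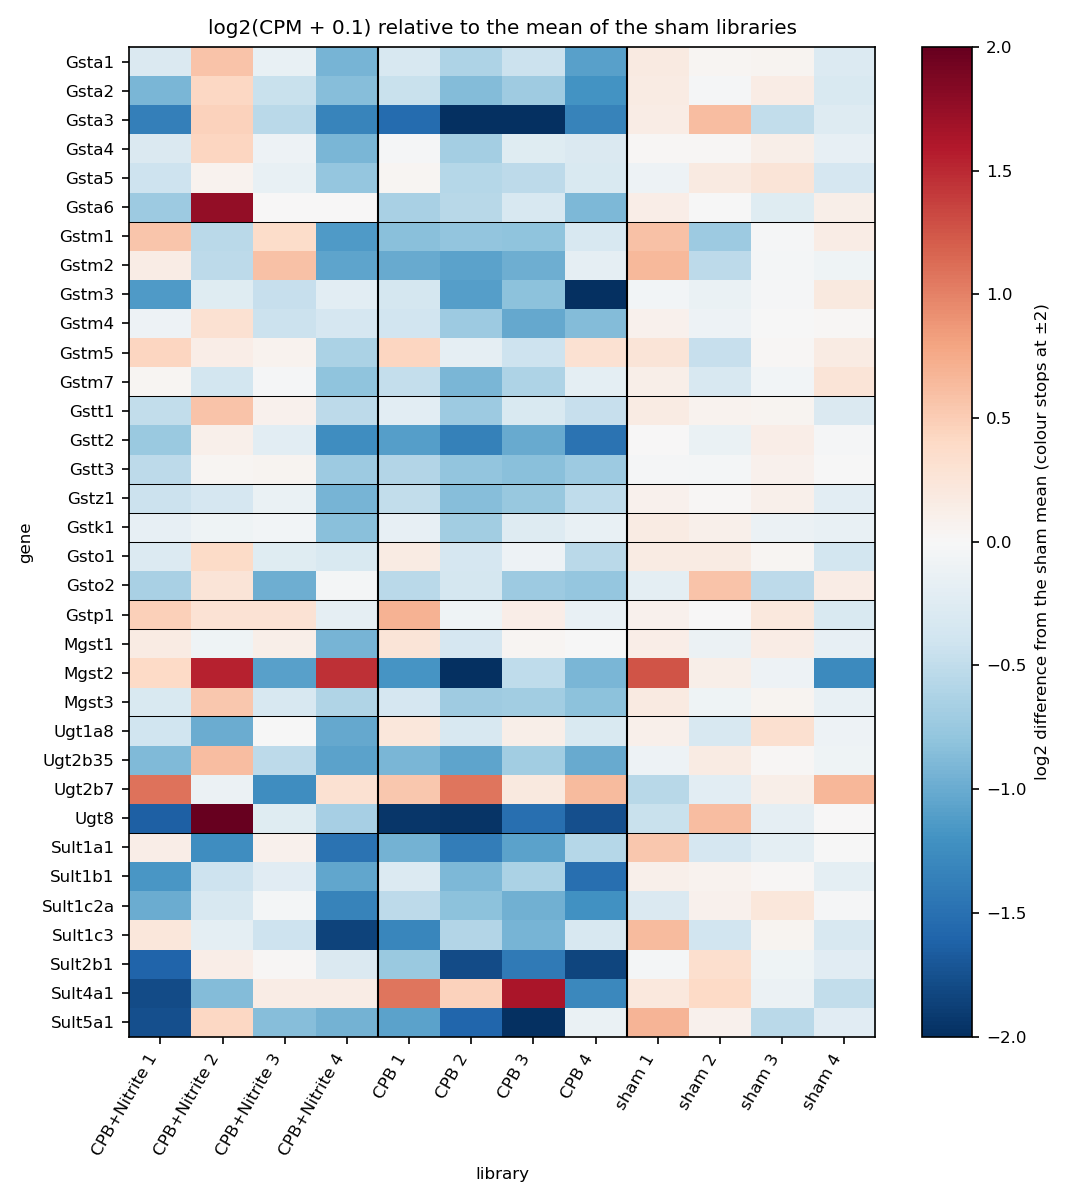
Colour shows log2(CPM + 0.1) of each tested conjugating enzyme gene (rows, by family) in each library (columns, CPB+Nitrite, CPB and sham from left to right) minus the mean of the sham libraries, and stops at ±2. Most CPB cells are blue (lower), the CPB+Nitrite 2 column is pale to dark red for the alpha class, Mgst2, Ugt2b35 and Ugt8, and the CPB+Nitrite 1 and 4 columns are mostly blue.

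Reads on the 43 genes together made up 0.396, 0.666, 0.58 and 0.307% of the reads of CPB+Nitrite libraries 1 to 4, against 0.479, 0.356, 0.361 and 0.301% in CPB and 0.64, 0.666, 0.67 and 0.59% in sham. Every CPB library was below every sham library, and the CPB+Nitrite libraries covered nearly the whole span. These shares are of total reads without TMM scaling, whose factors were 0.887 to 0.982 in CPB and 1.01 to 1.11 in sham. They weigh the most read genes, such as Sult1c2a (382371 reads over the 12 libraries) and Gsta2 (184519). Markers of the tubule and of other cell types moved alongside. Of 12 proximal tubule markers 7 were lower in CPB against sham, 2 in CPB+Nitrite against sham and none in CPB+Nitrite against CPB. In CPB against sham 9 of the 12 log2 changes were negative. Those of Slc5a2 (0.49), Cubn (0.3) and Slc5a12 (0.09) were positive and did not pass. The summed level of the 12 was 5370 to 7770 CPM in CPB+Nitrite, 5660 to 6510 in CPB and 8940 to 10500 in sham. The 2 proximal calls in CPB+Nitrite against sham became 0 when any sham or CPB library, CPB+Nitrite 1 or CPB+Nitrite 4 was left out, and 4 without CPB+Nitrite 3, when 9.11% of all genes were lower. In CPB against sham 2 of 5 collecting duct markers were also lower, 2 of 5 of the thick limb and distal tubule, 3 of 5 of stroma and smooth muscle, 2 of 5 of urothelium and 1 of 4 each of leukocytes and adipocytes, while of 5 endothelial markers 1 was higher and 1 lower. Over all 52 markers tested 19 were lower (36.5%) and 2 higher, beside 21.5% and 21.7% of all genes. Collecting duct markers summed to 709 to 1290 CPM in CPB and 1340 to 1770 in sham, without overlap, and those of the thick limb and distal tubule to 4830 to 7760 CPM in CPB and 6650 to 9070 in sham. In bulk tissue fewer cells of a type and less RNA per cell cannot be told apart, and the part of these markers in the results was not tested. CPB+Nitrite 2 differed in several marker sums from the rest of its group. Its 5 thick limb and distal tubule markers summed to 570 CPM (4720 to 8470 in the other CPB+Nitrite libraries), its 5 collecting duct markers to 4000 (1270 to 1490), its 5 endothelial markers to 735 (123 to 218) and its 3 erythrocyte markers to 7740 (306 to 375). Their part in the high values of that library was not tested. Of tissues beside the kidney, the 4 adrenal cortex markers found summed to 2.17 to 6.29 CPM and the 5 hepatocyte markers to 29.6 to 83.1 CPM over all libraries. Most of the hepatocyte sum was Cyp2c11, which averaged 39.8 CPM in CPB+Nitrite, 47.7 in CPB and 61.3 in sham. Alb, Ttr, Apoa2 and Serpina1 averaged at most 1.4 CPM each in any group. The 5 leukocyte markers summed to 16.1 to 29.1 CPM in CPB+Nitrite, 9.57 to 12.9 in CPB and 15 to 40.8 in sham. The 5 stromal and smooth muscle markers summed to 150 to 214 CPM in CPB+Nitrite, 35.2 to 106 in CPB and 76.9 to 539 in sham. Urothelial markers, 5 in number, summed to 2.53 to 112 CPM in CPB+Nitrite, 0.486 to 6.36 in CPB and 0.918 to 164 in sham, and the 4 adipocyte markers to 45.8 to 115 CPM in CPB+Nitrite, 74.3 to 95.8 in CPB and 54.8 to 229 in sham. The ranges of the leukocyte, stromal, urothelial and adipocyte lists overlapped between CPB+Nitrite and sham, whereas those of the proximal tubule list did not.

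Genes that feed, follow or control conjugation passed the test in both directions with bypass. Of 50 such genes 45 were tested, and in CPB against sham 6 were higher (13.3%, beside 21.7% of all genes), 15 lower (33.3%, beside 21.5%) and 24 did not pass. Clic1, a channel-forming protein with a GST fold, was the only one higher in CPB+Nitrite against sham (log2 change 0.87, adjusted p = 0.0443 in edgeR's test), and none passed in CPB+Nitrite against CPB. Of these 22 calls 16 held in all 21 alternatives. In CPB against sham Gss, Acy3, Arsb, Abcc1 and Nfe2l2 lost theirs in 6, 12, 12, 4 and 11 of the 21, with adjusted p up to 0.104, 0.121, 0.122, 0.0654 and 0.127. Clic1 lost its call in CPB+Nitrite against sham in 11 of the 21, with adjusted p up to 0.131 in edgeR's test. Other scaling alone was enough for Acy3, Arsb, Abcc1 and Nfe2l2. Without CPB+Nitrite 3 the lower genes of these lists in CPB+Nitrite against sham were 13 in place of 0. Of all genes 9.11% were then lower, in place of 0.955%. In glutathione synthesis and recycling, Slc7a11, the cystine importer, averaged 3.01 ± 3.14 CPM in CPB+Nitrite, 4.48 ± 2.44 in CPB and 0.382 ± 0.255 in sham (SD, n = 4 each), and rose in CPB with a log2 change of 3.54 (SE 1.01, adjusted p = 0.0149 in edgeR's test). Gss, glutathione synthetase, averaged 426 ± 160 CPM in CPB+Nitrite, 404 ± 110 in CPB and 663 ± 64 in sham (SD, n = 4 each), and fell in CPB with a log2 change of -0.72 (SE 0.25, adjusted p = 0.0381 in edgeR's test). The rate-limiting ligase subunits did not pass, with log2 changes of -0.63 (Gclc) and 0.07 (Gclm). In the mercapturate pathway 2 of 5 genes fell (40%, beside 21.5% of all genes): Nat8, the acetyltransferase of its last step, with a log2 change of -1.40 (SE 0.31, adjusted p = 0.00462 in edgeR's test), and Acy3, which removes that acetyl group, with a log2 change of -0.95 (SE 0.35, adjusted p = 0.0458 in edgeR's test).

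The suppliers of the other donors differed. Ugdh, which makes UDP-glucuronic acid, averaged 244 ± 136 CPM in CPB+Nitrite, 376 ± 11.5 in CPB and 143 ± 28.3 in sham (SD, n = 4 each), and rose in CPB with a log2 change of 1.40 (SE 0.31, adjusted p = 0.00495 in edgeR's test). Papss1, a synthase of the sulfate donor PAPS, averaged 65.3 ± 22.8 CPM in CPB+Nitrite, 41.3 ± 2.34 in CPB and 100 ± 13 in sham (SD, n = 4 each), and fell with a log2 change of -1.28 (SE 0.22, adjusted p = 0.0015 in edgeR's test). Its relative Papss2 did not pass (log2 change 0.33, adjusted p = 0.172 in edgeR's test). Bpnt1, a phosphatase that clears the spent donor, fell with a log2 change of -0.76 (SE 0.16, adjusted p = 0.00409 in edgeR's test). Of 4 genes listed under deconjugation 3 fell (75%, beside 21.5% of all genes), namely Gusb (beta-glucuronidase, log2 change -1.01), Arsa and Arsb (arylsulfatases, -0.76 and -0.37). Arsb lost its call in 12 of the 21 alternatives, and the other listed gene, Sts, did not pass (0.18).

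Of 7 conjugate exporters 2 rose and 2 fell in CPB (28.6% each way, near the 21.7% and 21.5% of all genes). Abcc2, the apical exporter MRP2 that carries glutathione and glucuronide conjugates, averaged 88.4 ± 78.2 CPM in CPB+Nitrite, 179 ± 54.8 in CPB and 24.4 ± 5.65 in sham (SD, n = 4 each), and rose with a log2 change of 2.88 (SE 0.68, adjusted p = 0.00643 in edgeR's test). Abcc1 (MRP1) rose with a log2 change of 0.79, Abcc6 fell with -1.57, and Abcg2, which exports sulfates among others, fell with -0.83. Among 9 tested regulators, 3 nuclear receptors fell (33.3%, beside 21.5% of all genes): Nr1i2 (the pregnane X receptor, log2 change -2.39), Ppara (-2.03) and Hnf4a (-1.46), the last of which also stands among the proximal tubule markers. Nfe2l2, the gene of NRF2, averaged 203 ± 82.1 CPM in CPB+Nitrite, 229 ± 16.1 in CPB and 144 ± 22.1 in sham (SD, n = 4 each), and rose with a log2 change of 0.67 (SE 0.25, adjusted p = 0.0479 in edgeR's test). This call was lost in 11 of the 21 alternatives. Of 7 other detoxification enzymes tested, Clic1 rose in CPB (1.28) and Nat1 and Ephx1 fell (-0.85 and -0.59), while 4 did not pass, among them Nqo1 (-0.20), a quinone reductase.

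**Figure D4:**
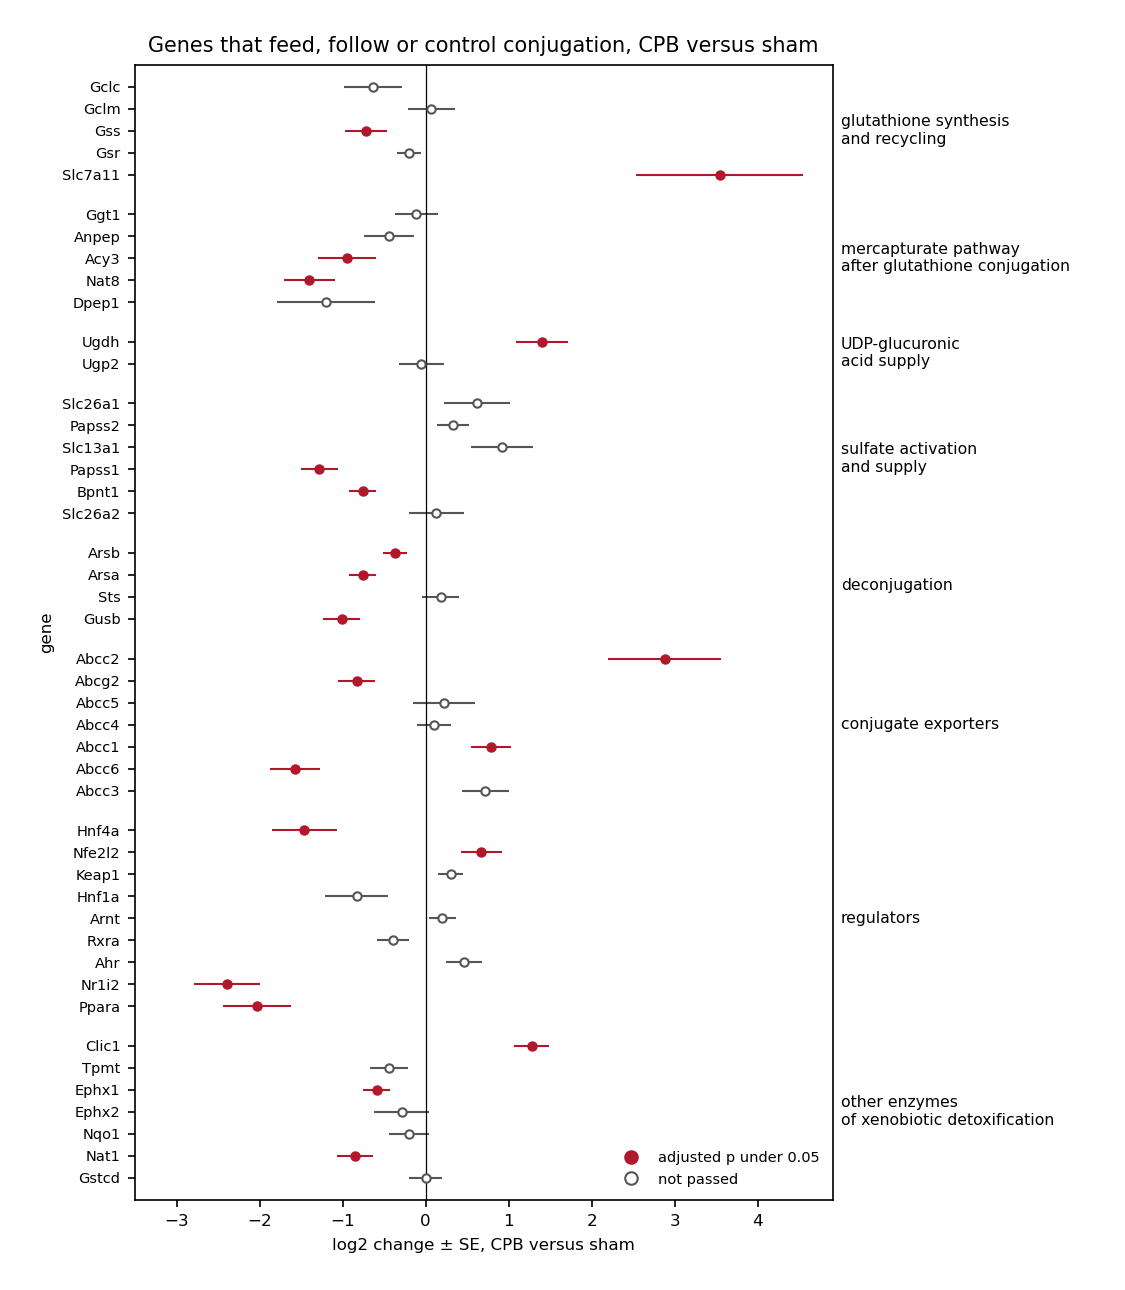
log2 change with its standard error (horizontal axis) in CPB versus sham for the 45 tested genes of 8 groups around conjugation (rows). Red filled points passed the adjusted threshold of 0.05, 6 to the right of 0, among them Slc7a11 and Abcc2, and 15 to the left, among them Nr1i2 and Ppara.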

How the data were processed

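RNA of rat kidney was sequenced in 12 libraries, and the labels gave the groups and replicate numbers. The libraries were strand-specific and made from DNase-treated total RNA, per the labels' protocols. The submitters' processing notes list Salmon 1.2.1, cutadapt 1.18, bcl2fastq 2.19 and R 3.5.1, without settings, and name mRatBN7.2 as the genome. The authors deposited estimated counts per Ensembl gene, not normalised, and 33.1% of the non-zero values were not whole (tolerance 1e-06). A second deposited table held a scaled signal, the same counts times 1 factor per library. It supplied symbols and coordinates, and its factors served as an alternative scaling. All sample columns were matched (0 left over).

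Counts were rounded, and filterByExpr with a minimum count of 10 kept 14664 genes with 99.95% of the reads. The 3 comparisons came from 1 fit of all 12 libraries without covariates (edgeR 4.0.16 in R 4.3.3, TMM factors 0.887 to 1.11, glmQLFit and glmQLFTest, two-sided, Benjamini-Hochberg over all genes tested, threshold 0.05). Standard errors came from the quasi-likelihood F statistic. The biological coefficient of variation was 0.317 with 9 residual degrees of freedom, so precision was set by replication more than by depth. The test was checked on simulated counts with known changes.

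The conjugating enzyme genes and the lists of related genes and markers were chosen with earlier results of these data known. Named with values are genes past the threshold in any comparison, genes averaging 50 CPM or more in any group and those with the smallest p of a family without a call. Of related genes, up to 3 with the largest changes per list were to be named, and others were added after their values were seen. A gene of these lists is not reported here. Alternatives were RLE factors, total counts, the authors' factors, no filter, a mean of at least 2 CPM, DESeq2 1.42.0, limma 3.58.1 voom with sample weights, a replicate block, only the groups compared and leaving out each library. Promoter windows came from RefSeq on GRCr8, with 4 of the tested genes lacking one (Gstt1, Gstt2, Mgst2 and Sult4a1).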

Additional observations from a re-analysis of the deposited data

Results flagged for a closer look

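For each of the 34 tested genes and 3 groups, 102 sets of 4 libraries in all, the highest or lowest library was set against the range of its group. By Dixon's criterion at the 95% level 5 sets had a library apart, and chance gives about 1 in 20. CPB+Nitrite 2 was apart in 3 of them. Ugt8 was at 61.2 CPM there, against 4.77 to 12.6 CPM in the other CPB+Nitrite libraries. Gsta6 was at 32 CPM, against 5.62 to 9.42 CPM, and Gsto1 at 145 CPM, against 89.7 to 93.7 CPM. CPB 4 was apart in the other 2, with Gstm2 at 101 CPM, against 54.5 to 58.1 CPM in the other CPB libraries, and Gstm1 at 61.9 CPM, against 43.4 to 44.8 CPM. Gstm1 and Gstm2 are similar copies whose reads the table does not separate with certainty.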

How the results depend on the processing

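In CPB against sham the count of 13 lower conjugating enzymes was 13 to 19 under other scalings, filters, DESeq2, the groups compared alone and the replicate block (14). It was 25 with limma voom and 7 to 16 when a library was left out. The share of all genes lower moved as well. It was 21.5% in the main fit and 26.9% with the groups compared alone, where the count was 19 of 33. It was 14.4% without a filter, 29.1% with total counts and 31.7% with limma voom. With a library left out it ran from 15.1% (without CPB 3) to 26.2% (without CPB+Nitrite 2). Deviations of same-numbered libraries from their group means had correlations of -0.107 to 0.381. The highest were 0.381 for replicate 2 of CPB+Nitrite and sham and 0.223 for replicate 1 of CPB and sham, so a pairing is not settled. The block changed no count of conjugating enzymes by over 1.5 times. Over all genes it cut the calls in CPB+Nitrite against sham from 565 higher and 140 lower to 27 and 1. In CPB+Nitrite against sham no gene was lower, but 5 with limma voom and 0 to 4 without a library. In CPB+Nitrite against CPB none was higher, but 7 with DESeq2 and 0 to 5 without a library. Of the related genes, 6 were higher in CPB against sham, but 12 with limma voom, 11 with only the groups compared and 4 to 9 without a library (15 lower, 12 to 17). Over all genes the higher calls were 3184 in the main fit, 4348 with limma voom and 4071 with only the groups compared. In CPB+Nitrite against sham, where 1 related gene was higher and 0 lower, the counts were 2 and 6 with DESeq2, 4 and 12 with limma voom, 0 higher with the block or only the groups compared, and 0 to 5 higher and 0 to 13 lower without a library. Over all genes they were 565 and 140 in the main fit, 1438 and 718 with DESeq2, and 1599 and 1271 with limma voom. Without CPB+Nitrite 3 they were 1620 and 1356. In CPB+Nitrite against CPB 3 related genes were higher with DESeq2 (beside 8.52% of all genes), and 0 to 4 higher and 0 to 1 lower without a library. The 2 proximal tubule markers lower in CPB+Nitrite against sham were 1 without a filter, 0 with the block or only the groups compared, 4 with DESeq2 or limma voom (beside 4.93% and 8.67% of all genes) and 0 to 4 without a library, when 0 to 1 were higher. Directions turned 55 times, over 25 of 128 results of single genes, and in none was the gene past the threshold in either fit. With total counts Gstm5 had log2 changes of -0.13 and -0.05 in CPB and CPB+Nitrite against sham and 0.08 in CPB+Nitrite against CPB (0.01 with the stricter filter), and Gclm -0.12 in CPB against sham. With limma voom Gsta6 had -0.03 and Ugt8 -0.79 in CPB+Nitrite against sham, Gsta4 -0.02, Gsta5 -0.03 and Sult1c3 -0.03 in CPB+Nitrite against CPB, and Gclm -0.04 in CPB against sham. When a library was left out, log2 changes that turned ranged as follows. In CPB against sham they were Gstm5 -0.08 to 0.19, Gstp1 -0.03 to 0.28, Ugt1a8 -0.17 to 0.05 and Gclm -0.01 to 0.18. In CPB+Nitrite against sham they were Gsta1 -0.43 to 0.08, Gsta4 -0.40 to 0.04, Gsta6 -0.21 to 0.83, Gstm1 -0.39 to 0.12, Gstm2 -0.46 to 0.12, Gstm5 -0.14 to 0.20, Gstt1 -0.29 to 0.10, Mgst1 -0.25 to 0.06, Mgst3 -0.41 to 0.02, Ugt2b7 -0.33 to 0.52 and Ugt8 -0.80 to 0.82. In CPB+Nitrite against CPB they were Gsta4 -0.11 to 0.33, Gsta5 -0.11 to 0.17, Gstk1 -0.08 to 0.19, Gstm5 -0.19 to 0.14, Gsto1 -0.09 to 0.22, Gstp1 -0.05 to 0.25, Mgst1 -0.24 to 0.07, Sult1b1 -0.09 to 0.29 and Sult5a1 -0.14 to 1.33. The cause of these changes was not tested. Genes averaging under 1 CPM, such as Gstm3, Sult5a1 and Ugt2b7, rest on 102 to 166 reads in all, which limits their precision.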
